A study of Mus musculus with 2 samples.

Results

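The subject is a set of 69 gene identifiers whose array signal was bright in mouse embryonic stem cells (mESCs) given LIF plus CHIR99021 (CHIR) and lower in mESCs given LIF alone. The members were chosen by their measured signals, out of 30774 identifiers on the array. A member had a signal of at least 500 with CHIR, a detection p-value under 0.01 with CHIR, and a signal with CHIR at least 1.5 times that in LIF. The detection p-value compares a signal with negative control beads. For the ratio, a LIF signal under 51.9 was raised to that value, the lowest detected signal in LIF of identifiers that appeared to have 1 probe. Of 76 identifiers past these limits, 7 were left out by name under the rule (Trh, Sp5, Cdx1, Krt23, Axin2, Klf2 and Tcfcp2l1). Tbx3, Nr5a2 and Klf4 were also to be left out, and did not reach the limits. The rule used the comparison itself, so every difference below is a description of 2 arrays and has no test.

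Illumina mouse beadchips were hybridized with total RNA, 1 array for mESCs in LIF and 1 for mESCs in LIF plus CHIR. The labels describe both as B6 mESCs in serum medium, derived from the inner cell mass of E3.5 embryos, with or without CHIR for 12 h, although a shared protocol text names LIF/CHIR99021 for both. The study's methods describe culture of another mESC line, 46C, and state no CHIR concentration for the arrays. LIF was present in both conditions, so the comparison asks which RNAs were more abundant when CHIR was added to LIF. There is no replicate culture or array. No spread between cultures, standard error or p-value can therefore be given for any difference, and the treatment cannot be told apart from a difference between the cultures or arrays.

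CHIR inhibits glycogen synthase kinase 3 (GSK3), the kinase that marks β-catenin for destruction. When GSK3 is inhibited, β-catenin accumulates, enters the nucleus and acts with Tcf/Lef factors on their target genes, and in mESCs this favors self-renewal. LIF acts through Jak kinases and Stat3. GSK3 also phosphorylates many proteins outside the Wnt pathway.

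The cells carried the markers of their label. Of 8 pluripotency markers 6 were detected at a detection p-value under 0.01, with Pou5f1 (Oct4) at 12346 in LIF and 11309 in LIF plus CHIR. Sox2 and Tdgf1 were not detected, although Sox2 had signals of 441.2 in LIF and 400.2 in LIF plus CHIR. Of 7 feeder fibroblast markers 0 were detected on either array, although Thy1 had signals of 222.3 in LIF and 225.3 in LIF plus CHIR. A gene called not detected could thus still have a signal. Detected were 1 of 7 primitive endoderm markers, 2 of 6 trophoblast markers and 1 of 5 neural markers, none with a signal above 93.5. The part of such cells in the members' values was not tested. In RNA from whole cultures, more cells of a type and more RNA per cell cannot be told apart.

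The members spanned a wide range of brightness and a narrow range of ratios. Their signals with CHIR lay between 520.9 and 11817, with a median of 1016, and their signals in LIF lay between 133.1 and 6525, with a median of 603.5. The median ratio was 1.69 (log2 difference 0.75). Of the members, 3 were at least 3-fold higher with CHIR and 19 were at least 2-fold higher, while 50 lay under 2-fold. Among the left-out genes past the limits, Sp5 was 15.6-fold higher, Cdx1 12.8-fold, Krt23 9.87-fold and Axin2 3.75-fold. Trh was 2.29-fold higher, Klf2 1.77-fold and Tcfcp2l1 1.76-fold. In LIF, 44 of the 69 were already at or above 500. All but 1 were detected in LIF, so most members were RNAs present on both arrays whose signal was higher with CHIR.

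The background of the rule is the 4441 identifiers with a signal of at least 500 and a detection p-value under 0.01 with CHIR. Of these, 76 (1.71%) were at least 1.5-fold higher with CHIR. Of the 4435 identifiers that bright in LIF, 68 (1.53%) were at least 1.5-fold lower with CHIR. The median log2 difference of all 4441 was 0.00, and 5% of them lay below -0.29 and 5% above 0.35. Because the rule used these differences, nothing about the members is read from the shares.

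**Figure D1:**
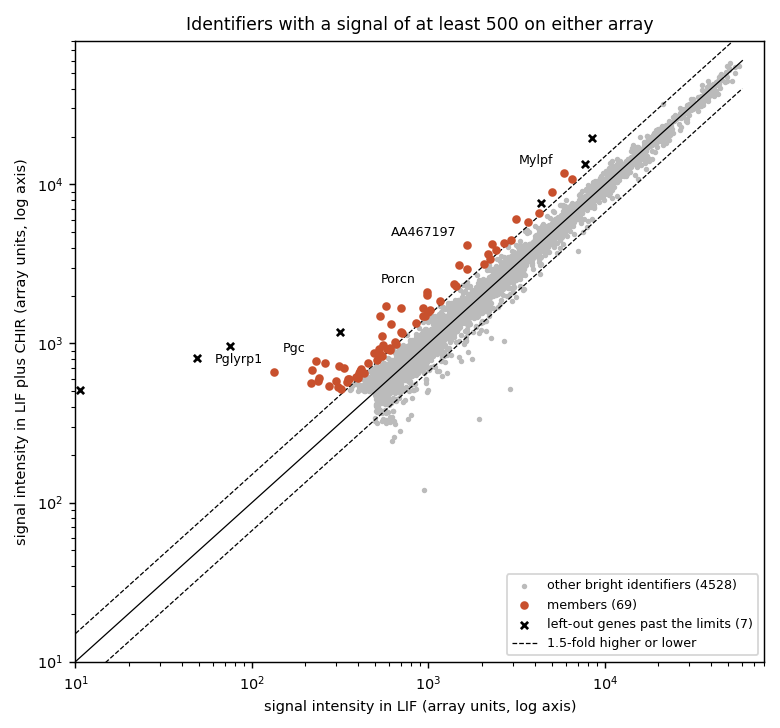
Signal intensity in LIF (x axis) against LIF plus CHIR (y axis), both in array units on log axes, for identifiers of at least 500 on either array, with 1 array per condition. The 69 members (orange) lie above the upper dashed line of 1.5-fold by construction, from Itpka at 520.9 with CHIR to Mylpf at 11817, and 7 left-out genes are crosses.

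The share past the limit depended on brightness. Where the brighter signal was from 500 to under 1000, 37 identifiers (2.76%) were higher with CHIR and 35 (2.61%) were lower. From 1000 to under 3000 there were 21 higher (1.22%) and 28 lower (1.63%). At 3000 or more, 18 were higher (1.16%) and 5 were lower (0.323%). The members in these ranges numbered 34, 20 and 15. The higher and lower counts were thus nearly equal among the dimmest of these identifiers and unequal among the brightest, without a replicate to set a spread for either.

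**Figure D2:**
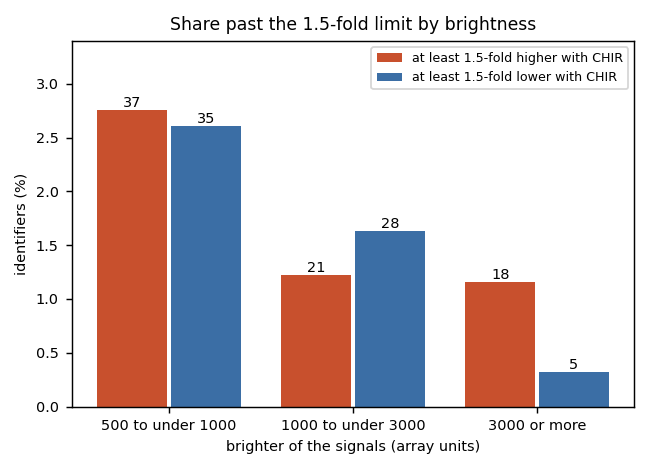
Share of identifiers (y axis, %) at least 1.5-fold higher (orange) or lower (blue) with CHIR in 3 ranges of the brighter signal (x axis, array units), with the number of identifiers above each bar. At 3000 or more 18 identifiers were higher and 5 were lower.

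The limits of the rule fell within a continuum. Just above a signal of 500 with CHIR were Itpka (520.9 with CHIR and 317.7 in LIF), Hr (528.6 and 307.4) and 2310007H09Rik (541.7 and 274.4). Just below it were S100a13, with 483.7 and 171.2, Gsta3, with 469.9 and 303.1, and the Wnt receptor gene Fzd10, with 457.5 and 139.0. Fzd10, at 3.29-fold, had a larger ratio than all but 2 members and was outside for its brightness alone. The members nearest to the 1.5-fold limit were Tpd52l1 (1.51), Lima1 (1.52) and AB112350 (1.52). Nearest on the other side, just under 1.5-fold, were Cercam (777.7 with CHIR and 518.9 in LIF), Zfp553 (801.1 and 534.8) and Nfatc2ip (585.9 and 391.2).

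Names were taken from the array files and matched to RefSeq. By Entrez number 56 members had a RefSeq gene, by symbol 5 and by an older name 1, and 7 had none. RefSeq has a newer symbol for 9 members, and these are given beside the array's name below. For 8 members, 6 from the MEEBO probe collection, 1 from Riken and the record LOC100047261, the files give no Entrez number and no chromosome. LOC100047261 is 1 of 6 members that are records known only as similar to a gene or as hypothetical. For 9 members (Ctsc, Rab11fip5, Asns, Pcolce2, Hr, Serpinh1, Pank1, Syngr1 and Cmtm7) the detection p-values had the form of values combined over several probes, and the other 60 appeared to have 1 probe.

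Tcf/Lef factors carry β-catenin to DNA, so the promoters of the members were searched for the core of their binding motif, CTTTGA, on either strand. RefSeq promoter windows of build GRCm38.p6, from 250 bases before to 50 after each gene start, were matched to 50 of the 69 members. The motif was found in 6 of these 50 genes (12.0%), against 13.9% of 3167 bright genes and 18.2% of all 27025 genes with a window. The share in the members was below both in this window. In the 150 bases before the start the order turned, with the core in 5 members (10%), 6.88% of the bright genes and 9.20% of all genes, so no direction holds for this motif. The stretches with the core before the start are shown for those 6 genes, to let the sites be seen, 5′ to 3′ on the strand of the gene, with the core or its reverse complement in capitals. For Gm1967 (Accsl) which has other matches too, the match nearest before a start is shown. A match is a sequence description and not a measured binding site.
Cd63, chr10:128909250-128909335, plus strand: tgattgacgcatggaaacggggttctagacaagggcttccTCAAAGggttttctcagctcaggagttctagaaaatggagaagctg
Slc12a8, chr16:33518430-33518515, plus strand: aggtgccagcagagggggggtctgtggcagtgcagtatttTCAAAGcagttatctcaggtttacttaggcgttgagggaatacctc
Cyba, chr8:122432963-122433048, minus strand: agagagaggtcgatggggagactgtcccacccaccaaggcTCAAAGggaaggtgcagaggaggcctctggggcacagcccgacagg
Slc39a11, chr11:113650141-113650226, minus strand: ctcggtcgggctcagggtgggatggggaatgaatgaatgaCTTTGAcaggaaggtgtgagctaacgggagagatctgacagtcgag
Gm1967 (Accsl), chr2:93930532-93930617, minus strand: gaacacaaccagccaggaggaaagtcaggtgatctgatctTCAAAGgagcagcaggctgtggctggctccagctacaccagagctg
5033414K04Rik (Pid1), chr1:84284803-84284888, minus strand: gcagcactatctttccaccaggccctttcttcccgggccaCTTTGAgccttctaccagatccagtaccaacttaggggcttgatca

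The cores began 55 bases before the start in Cd63, 65 in Slc12a8, 68 in Cyba, 94 in Slc39a11, 95 in Gm1967 and 203 in 5033414K04Rik. The ratios of these 6 genes lay between 1.54 (Slc39a11) and 1.76 (Gm1967), below the 19 members at 2-fold or more.

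For the other motifs too, the bright genes are the nearer background, since bright genes and all genes differed in GC content. The GC box GGGCGG, bound by the Sp and Klf families, was present in 39 of the 50 members (78.0%), in 72.8% of the bright genes and in 38.2% of all genes. The Stat site TTCNNNGAA was present in 5 members (10%; Ctsc, Itpka, Nr6a1, Pcolce2 and Slc12a8), in 8.05% of the bright genes and in 9.55% of all genes. The E-box CACGTG was present in 6 members (12.0%), in 14% of the bright genes and in 8.09% of all genes. Both strands were searched, and matches of different motifs could overlap. The median GC content was 60.7% in 65 windows of the members, 61.0% in windows of the bright genes and 52.7% in all windows.

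**Figure D3:**
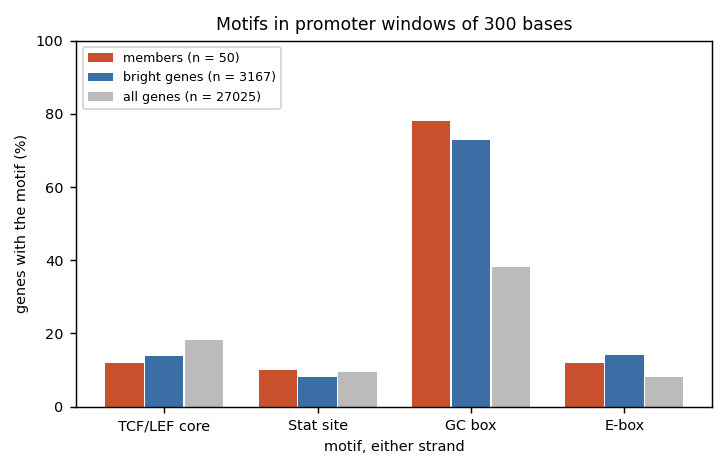
Share of genes (y axis, %) with each of 4 motifs on either strand of a promoter window of 300 bases, for 50 members, 3167 bright genes and 27025 genes in all. The GC box was present in 78.0% of the members and 72.8% of the bright genes, and the TCF/LEF core in 12.0% and 13.9%.

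The members were grouped by known role after their values were seen. There were 10 in signaling, 8 in gene regulation, 12 in protein turnover and the secretory pathway, 16 in metabolism, 10 membrane proteins, 7 in the cytoskeleton and calcium binding, and 6 with no role given here.

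**Figure D4:**
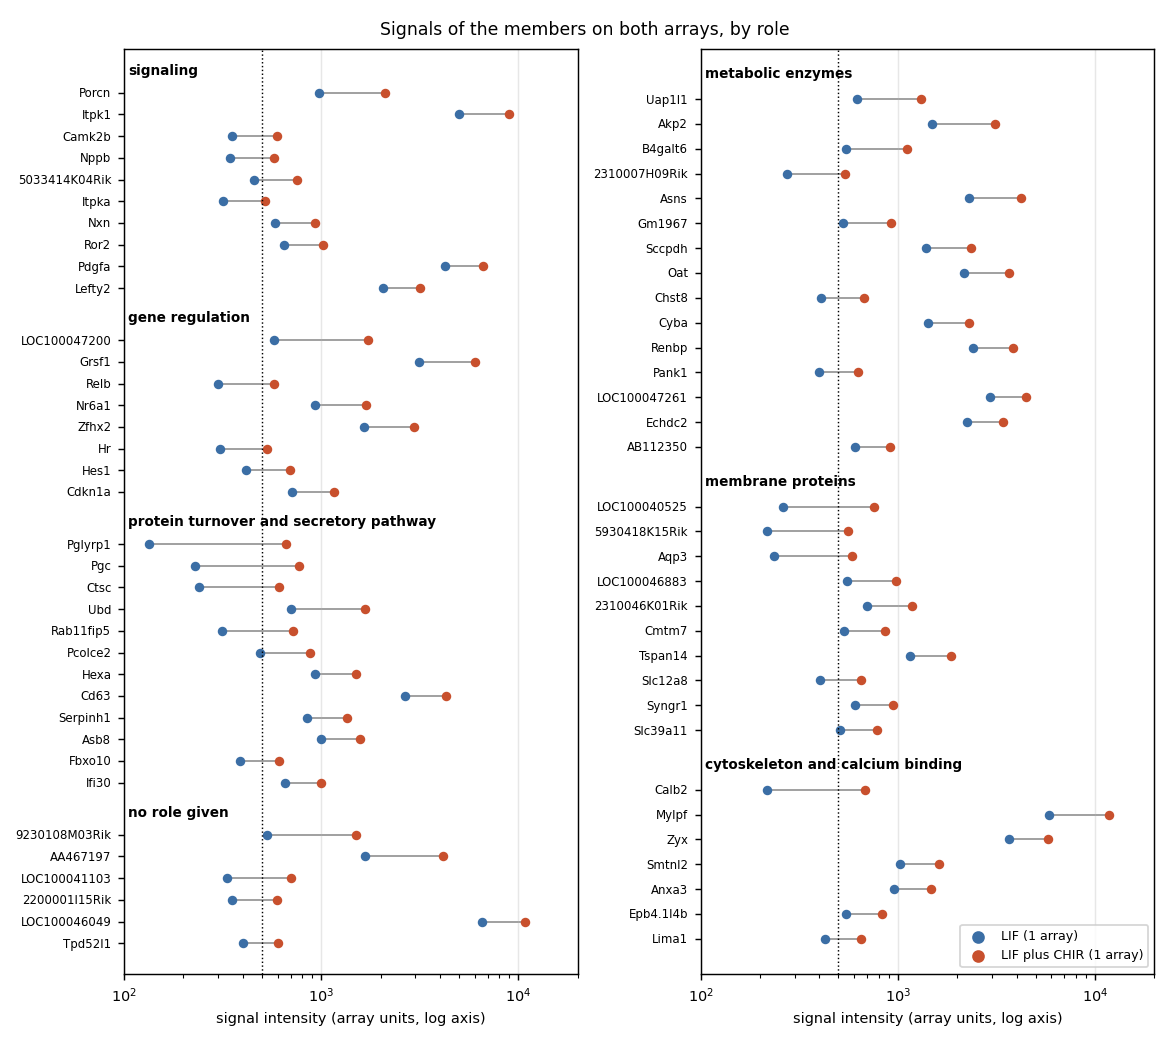
Signal intensity (x axis, array units on a log axis) of 68 members in LIF (blue) and in LIF plus CHIR (orange), with 1 array per condition, in groups by role and ordered by ratio within a group. The dotted line marks the limit of 500 with CHIR, and the longest line is that of Pglyrp1, from 133.1 to 665.3.

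Among the signaling members, 3 encode proteins tied to a Wnt ligand, a Wnt receptor or another component of the Wnt pathway. The share of such genes among all bright identifiers was not counted. Porcn (Entrez gene 53627, chromosome X), the acyltransferase that adds the lipid which Wnt proteins need for secretion, had a signal of 2110 with CHIR and 975.2 in LIF, a ratio of 2.16. It had the largest ratio of the group. Ror2, a receptor tyrosine kinase that binds Wnt5a, had 1016 and 648.8 (1.57-fold). Nxn, a redox protein that binds the Wnt pathway component Dishevelled, had 926.9 and 582.0 (1.59-fold). All 3 were detected on both arrays.

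Secreted ligands were also members. Pdgfa, a platelet-derived growth factor chain, was among the brightest, with 6638 with CHIR and 4250 in LIF (1.56-fold). Lefty2, an inhibitor of Nodal signaling, had 3172 and 2061 (1.54-fold). Its close relative Lefty1, which is not a member, had 2220 and 2896 and so was lower with CHIR (log2 difference -0.38, against 0.62 for Lefty2). The genes are near copies of each other, and whether the probes hybridize with both RNAs was not tested. Nppb, the precursor of a natriuretic peptide, had 572.9 and 344.3 (1.66-fold).

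The remaining signaling members act inside the cell. Itpk1, a kinase of inositol phosphates, had 8922 with CHIR and 5013 in LIF (1.78-fold), and only Mylpf and LOC100046049 were brighter among the members. Itpka, which phosphorylates inositol trisphosphate, was the dimmest with CHIR, with 520.9 and 317.7 (1.64-fold). Camk2b, a calcium/calmodulin-dependent kinase subunit, had 594.5 and 350.5 (1.70-fold). 5033414K04Rik, now Pid1, a protein with a phosphotyrosine interaction domain, had 751.5 and 454.2 (1.65-fold). These members differed more than 10-fold in brightness, and their ratios lay between 1.64 and 1.78. The whole signaling group spanned ratios from 1.54 to 2.16, and the rule had excluded ratios under 1.5.

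Of the members in gene regulation, the largest ratio was that of LOC100047200, a record described as similar to T-box 3 protein. Its signal was 1718 with CHIR and 578.0 in LIF (2.97-fold). The identifier named Tbx3, a transcription factor of the naive state that was left out by name, had 414.3 and 176.7 (2.34-fold). Both differed in the same direction, and because the record is defined by its likeness to Tbx3, its probe may report the same RNA, which was not tested. Nr6a1, an orphan nuclear receptor that represses Oct4 when cells differentiate, had 1676 and 926.0 (1.81-fold). Pou5f1, the gene of Oct4, had a log2 difference of -0.13.

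Grsf1, which binds G-rich RNA in mitochondria, was the brightest of this group, with 6034 with CHIR and 3120 in LIF (1.93-fold). Relb, an NF-κB subunit, had 577.3 and 299.7 (1.93-fold). Zfhx2, a zinc finger homeobox protein, had 2935 and 1654 (1.77-fold), and Hr, a corepressor of nuclear receptors, had 528.6 and 307.4 (1.72-fold). The LIF signal of Hr was barely detected, with a detection p-value of 0.0098. Hes1, a repressor downstream of Notch, had 694.2 and 416.4 (1.67-fold), and Cdkn1a, the p21 inhibitor of cyclin-dependent kinases, had 1161 and 709.7 (1.64-fold).

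The 2 members with the largest ratios, Pglyrp1 and Pgc, were placed in protein turnover and the secretory pathway. Pglyrp1, a secreted protein that binds bacterial peptidoglycan, had 665.3 with CHIR and 133.1 in LIF, a ratio of 5.0. A second identifier, named Pglyrp and matched to the same gene by an older name, had 63.3 and 27.9 and was detected only with CHIR, so it differed in the same direction close to background. Pgc (Entrez gene 109820, chromosome 17), the zymogen of the stomach protease gastricsin, had 771.8 and 230.0 (3.36-fold). Ctsc, the lysosomal dipeptidyl peptidase cathepsin C, had 607.7 and 238.7 (2.55-fold). Each of these was below 500 in LIF and above it with CHIR.

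Ubd, a ubiquitin-like modifier that targets proteins to the proteasome, had 1669 with CHIR and 697.9 in LIF (2.39-fold). Rab11fip5, an effector of Rab11 in recycling endosomes, had 721.1 and 312.2 (2.31-fold). It was the only member not detected in LIF, with a detection p-value of 0.038 there and 0.0065 with CHIR, although its LIF signal was above that of some detected members. Pcolce2, which enhances procollagen processing, had 873.8 and 488.5 (1.79-fold), and Serpinh1, the collagen chaperone Hsp47, had 1345 and 844.2 (1.59-fold). The fibroblast collagen genes Col1a1, Col1a2 and Col3a1 were not detected on either array.

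Other members of this group are proteins of lysosomes and endosomes. Hexa, a lysosomal hexosaminidase subunit, had 1492 with CHIR and 924.8 in LIF (1.61-fold). Cd63, a tetraspanin of late endosomes, had 4268 and 2664 (1.60-fold), and Ifi30, a lysosomal thiol reductase, had 992.7 and 653.1 (1.52-fold). The ubiquitin ligase adaptors Asb8 and Fbxo10 were 1.58-fold higher each.

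The metabolic group was the largest, and its ratios lay between 1.52 and 2.13. Uap1l1, related to the enzyme that makes UDP-N-acetylglucosamine, had 1316 with CHIR and 617.1 in LIF (2.13-fold). Akp2, now Alpl (Entrez gene 11647, chromosome 4), is the alkaline phosphatase whose activity is stained to mark undifferentiated mESCs. It had 3099 and 1487 (2.08-fold). B4galt6, a galactosyltransferase of glycolipid synthesis, had 1109 and 548.6 (2.02-fold). Each of these was at 2-fold or more.

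Amino acid enzymes were among the bright members. Asns, asparagine synthetase, had 4223 with CHIR and 2289 in LIF (1.84-fold). Oat, ornithine aminotransferase, had 3668 and 2172 (1.69-fold). LOC100047261, a record similar to the polyamine enzyme spermidine/spermine N1-acetyltransferase, had 4448 and 2920 (1.52-fold). The identifier Sat2, defined as an enzyme of the same name, differed in the opposite direction, with 119.4 and 150.5. Renbp, an epimerase of N-acetylated hexosamine, had 3854 and 2415 (1.60-fold). All 4 members were detected on both arrays, Asns, with values combined over several probes, at a detection p-value of 0.0087 in LIF.

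The other metabolic members had smaller or dimmer differences. 2310007H09Rik (Lhpp, a phosphatase) was 1.97-fold higher, Gm1967 (Accsl) 1.76-fold, Sccpdh 1.70-fold, the sulfotransferase Chst8 1.64-fold, the NADPH oxidase subunit Cyba 1.61-fold, the coenzyme A synthesis kinase Pank1 1.57-fold and Echdc2 1.52-fold. AB112350, now Napepld, a phospholipase that makes N-acylethanolamines, had 916.1 and 603.5 (1.52-fold). The array has a second identifier for that gene, named Napepld, with 960.3 and 710.8 (1.35-fold). The identifiers thus differed in the same direction, on different sides of the limit.

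Of the membrane proteins, the 2 with the largest ratios point to the same protein. LOC100040525, a record similar to G protein-coupled receptor 178, had 754.2 with CHIR and 260.4 in LIF (2.90-fold), and 5930418K15Rik, an older name of Tmem181a, had 560.7 and 216.8 (2.59-fold). Another identifier, named Tmem181 and below the limit of brightness, had 242.1 and 129.7 (1.87-fold). All 3 were detected on both arrays, and differed in the same direction. The identifiers 5930418K15Rik and Tmem181 were matched to the same RefSeq gene. LOC100040525 may report transcripts of that gene or of a near-identical one, which was not tested. LOC100040525 and 5930418K15Rik are nevertheless counted as separate members throughout.

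Transporters were another part of this group. Aqp3, a channel for water and glycerol, had 584.5 with CHIR and 235.5 in LIF (2.48-fold). 2310046K01Rik, now Slc52a3, a riboflavin transporter, had 1181 and 700.5 (1.69-fold). Slc12a8 was 1.61-fold higher and the zinc transporter Slc39a11 was 1.54-fold higher. Of the remaining membrane proteins, LOC100046883, a record similar to a CKLF-like MARVEL protein, and Cmtm7, of the same family, were 1.77-fold and 1.61-fold higher, Tspan14, a tetraspanin, 1.61-fold, and the synaptic vesicle protein Syngr1 1.56-fold.

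Mylpf, a regulatory light chain of fast skeletal muscle myosin, was the brightest of all 69 members, with 11817 with CHIR and 5843 in LIF (2.02-fold). The largest ratio of the cytoskeletal and calcium-binding group was that of Calb2, the calcium buffer calretinin, with 681.1 and 217.5 (3.13-fold). Zyx, the focal adhesion protein zyxin, had 5779 and 3660 (1.58-fold). Smtnl2 (1.58-fold), Anxa3 (1.55-fold), Epb4.1l4b (1.53-fold; now Epb41l4b) and the actin-binding Lima1 (1.52-fold) completed the group.

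For 6 members no role is given. AA467197 had 4146 with CHIR and 1661 in LIF (2.50-fold), and 9230108M03Rik had 1495 and 533.2 (2.80-fold). LOC100046049, a hypothetical record, was the second brightest member, with 10802 and 6525 (1.66-fold). LOC100041103, another hypothetical record, had 703.1 and 333.8 (2.11-fold). 2200001I15Rik (Fam25c) and Tpd52l1 were 1.69-fold and 1.51-fold higher.

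Of 212 genes in 16 lists of pathways, 123 were detected on at least 1 array, with 15 at least 1.5-fold higher with CHIR and 8 at least 1.5-fold lower. The 69 members include 3 of the higher genes (Asns, Cdkn1a and Lefty2), a number that the rule itself lowered, since 5 list genes past its limits were left out by name (Sp5, Axin2, Cdx1, Klf2 and Tcfcp2l1). Over all 9615 identifiers detected on at least 1 array, 247 (2.57%) were at least 1.5-fold higher with CHIR and 273 (2.84%) at least 1.5-fold lower, with a median log2 difference of -0.01. In the ATF4 and amino acid list 1 of 11 detected genes was higher and 0 were lower, with a median log2 difference of 0.17. The higher gene was Asns, and the next was Psat1, of serine synthesis (0.44), while Trib3 (-0.12) and Chac1 (-0.06) had values near 0. Asns thus had the largest difference among the 11 detected genes of this list.

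In the p53 list 1 of 11 detected genes was higher and 0 were lower, with a median of -0.05. Cdkn1a was that gene, at 0.71 on the log2 scale, and other p53 targets lay lower, such as Bax (0.17), Ccng1 (-0.05), Gadd45a (-0.25) and Bbc3 (-0.32). In the post-implantation epiblast list 1 of 9 detected genes was higher, the member Lefty2, and 2 were lower, Otx2 (-2.98) and Pou3f1 (-2.49), with a median of -0.38. Each of these members was the only gene of its list past the limit in its direction. The other 13 lists held no member, which does not mean that their genes had equal signals. Of 11 detected Wnt/β-catenin targets 5 were higher and 0 lower, with Sp5, Axin2 and Cdx1 left out by name and T and Cdx2 below a signal of 500. Of 13 detected genes of naive pluripotency 4 were higher, all left out by name (Klf2, Tcfcp2l1, Tbx3 and Nr5a2), and 1 was lower. In the primitive streak list 6 of 8 detected genes were at least 1.5-fold higher, yet of these only Cdx1, left out by name, had a signal of 500 or more with CHIR, and T had 394.5.

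**Figure D5:**
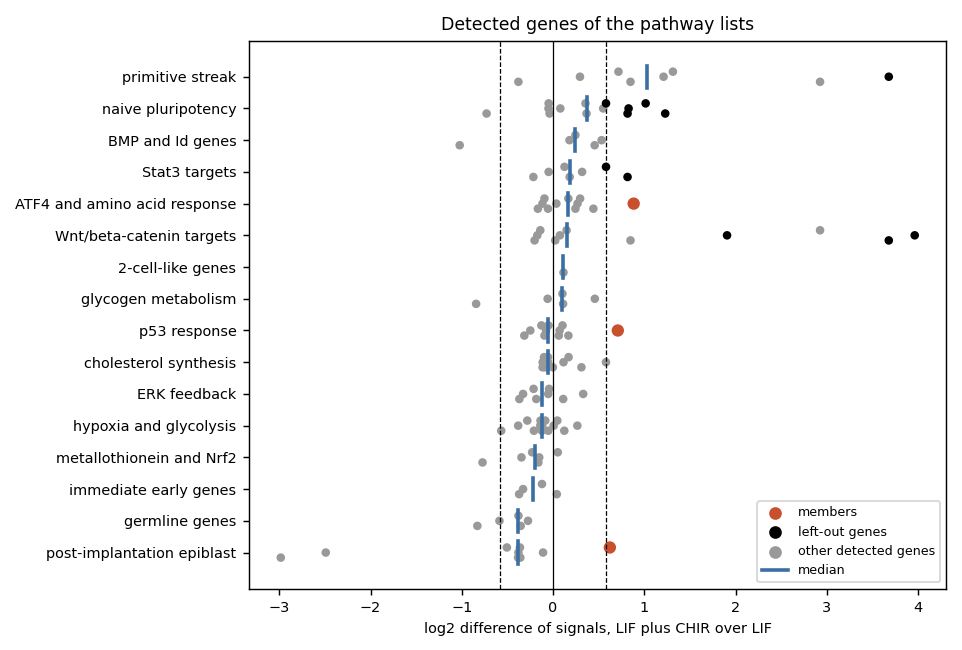
Log2 difference of signals, LIF plus CHIR over LIF (x axis), of the detected genes in each of 16 pathway lists (y axis), with a blue line at the median of each list and dashed lines at 1.5-fold. The 3 members (orange) are Asns at 0.88, Cdkn1a at 0.71 and Lefty2 at 0.62, each the only gene of its list past the upper dashed line.

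The annotation of the array files was read for features that the rule did not use. Of the 57 members with a chromosome band, 7 were on chromosome 7 (of 295 bright identifiers there), 6 on chromosome 4 (of 230) and 0 on chromosome 3 (of 125). Members made up 1.64% of all 3467 bright identifiers with a band. A cellular component was annotated for 32 members and 2100 bright identifiers. A membrane term was present for 13 of the 32 members (40.6%) and for 31.4% of the bright identifiers. A lysosome term was present for 3 members (9.38%; Ctsc, Hexa and Ifi30) and for 25 of the 2100 (1.19%). A nucleus term was present for 8 members (25%) and for 38.9% of the bright identifiers. The terms were picked after the members were seen, and no test was made.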

How the data were processed

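RNA of mESCs was measured on 2 arrays, 1 per condition, assigned from the sample labels. Signals, as the authors deposited them, are a linear intensity that falls below 0 for some identifiers. Their distribution was nearly equal between the arrays (95th percentile 3093 in LIF and 3077 with CHIR). The method of any normalization and the software are not given in the sources used here. The authors also deposited detection p-values. Most of these are 0 or whole multiples of 1/936 (within 0.002 of a step), from which 936 negative controls were inferred, and the 23264 identifiers with such values on each array were treated as having 1 probe. In the shorter table of 11702 identifiers, 0 signals differed from the longer one.

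The tools were numpy 2.4.6 and pandas 2.3.3 (Python 3.11.15) for the ratios, and matplotlib 3.10.9 for the plots. A log2 difference is log2 of the ratio, with signals under 51.9 (LIF) or 47.1 (LIF plus CHIR) raised to these values. Where both signals were under these values, it was -0.14 whatever the signals, such as for Tcf7 (27.5 in LIF and 46.0 with CHIR). For a list gene with several identifiers the brightest was used. The rule was run on simulated data with 3-fold changes, larger than those of most members. That run does not test calls near the 1.5-fold limit. Values were planned for the 25 members with the largest ratio, the 10 brightest, list members and the 3 identifiers nearest to each limit, and were given for others too. Members, lists and roles were chosen with earlier results of these data known. Alternatives were quantile normalization, scaling to equal medians, normexp correction (limma 3.58.1, R 4.3.3, offset 16), other minimum signals, other limits, detection on both arrays and the shorter table. The number of arrays limits the precision. Promoters are from RefSeq (GRCm38.p6). No array coordinates were used. The values of 1 member are not reported here.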

Additional observations from a re-analysis of the deposited data

How the results depend on the processing

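No paired analysis was possible because a single array per condition leaves nothing to pair. The 69 members became 35 at a signal of at least 1000, 178 at a limit of 1.3-fold and 19 at 2-fold. The share of bright identifiers past the limit became 4.19% at 1.3-fold and 0.54% at 2-fold. Under quantile normalization (72 members) all 69 were retained. Scaling to equal medians (86) raised the log2 difference of every member by the same amount, so it could take none below the fold limit. No minimum signal (69), the minimum of any identifier (69) and the shorter table (69) could not change the members. The lowest LIF signal of a member was 133.1, above the minimum of 51.9. The shorter table lacked 0 bright identifiers, and 0 shared signals differed. Scaling to equal medians moved the split of bright calls from 76 higher and 68 lower to 94 and 57. It also moved the median log2 difference of all bright identifiers from 0.00 to 0.05. This shift is larger than the medians over all identifiers give (10.50 in LIF and 10.45 with CHIR). The identifiers whose medians were made equal are not stated here, so the split of 94 and 57 depends on an unstated choice. Normexp correction gave 67, losing Lima1 and Tpd52l1, and detection on both arrays gave 68, losing Rab11fip5. With only identifiers of the 1-probe form, an alternative added after seeing the data, 60 were left. A signal of at least 300 gave 95. In the pathway lists, the minimum of any identifier gave 18 higher and 8 lower genes, against 15 and 8. Quantile normalization and a detection limit of 0.05 left these list counts at 15 and 8. Under quantile normalization and normexp correction, 0 members changed direction and 0 moved by over 1.5 times. Scaling shifted all members alike, and the alternatives of minimum signal, detection and table left the members' values unchanged, so these do not test it. In the 150 bases before the start, a shorter window, the share of members with a Stat site was 2% (bright genes 4.01%, all genes 4.77%), which turned from above to below both backgrounds. The share with an E-box was 6% (8.15% and 4.92%) and with the TCF/LEF core 10% (6.88% and 9.20%), which turned from below to above both. The causes were not tested.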
